A study of Mus musculus with 6 samples.

Results

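The p53 pathway was followed through 10 genes in the pharyngeal arch region of mouse embryos with and without the transcription factor Pax9. The genes are *Trp53*, which encodes p53, and 9 genes that p53 is known to switch on, namely *Mdm2*, *Cdkn1a*, *Ccng1*, *Bax*, *Bbc3*, *Phlda3*, *Zmat3*, *Sesn2* and *Eda2r*. They were picked by name from the 14647 genes listed, with their differences between the genotypes already known, so their values are given as a description and carry no test. All 10 were listed, and all 10 passed the filter of a mean of at least 0.5 RPKM (reads divided by gene length and by library size) that left 13547 genes. RNA came from embryonic day 9.5, from 3 *Pax9*-/- (*Pax9*-null) embryos and 3 wild-type embryos on a C57Bl/6J background, with both sexes in the series. The null allele was constitutive and not restricted to a cell type, and no agent was given. The arch region was dissected from the border of arches 1 and 2 to the base of the heart and sequenced in bulk. Pax9 acts in the endoderm, which is only a fraction of that tissue. The reads recovered from the values numbered 11858415, 11658122 and 11743874 in *Pax9*-null libraries 1, 2 and 3, and 12701710, 12243970 and 12106338 in the wild-type libraries. The authors had sub-sampled every library towards the smallest, so these numbers are not the depth of sequencing.

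p53 is a transcription factor that is held at a low level by Mdm2, a ubiquitin ligase that marks p53 for destruction and that is itself made on p53's orders. DNA damage, stalled ribosome production and other stresses release p53 from Mdm2, mainly by stabilising the protein, and p53 then raises genes that stop the cell cycle, kill the cell or repair it. The message of a target such as *Cdkn1a* is therefore a common readout of p53 activity, whereas the message of *Trp53* itself is not. In the early embryo, neural crest cells and the pharyngeal arches they fill are known to be sensitive to surplus p53, which kills the crest cells in several mouse models of craniofacial syndromes.

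Several libraries stood apart from the others in the genes of blood, heart and nerve. The summed level of 10 erythroid genes was 5010, 2690 and 4570 RPKM in *Pax9*-null libraries 1 to 3 and 2450, 2550 and 2510 RPKM in the wild-type libraries, led by the embryonic globin *Hbb-y* with 39.5% of the sum. All 10 had a fold change above 0, and 2 were called higher by limma, beside 14.7% of all genes. The count rested on single libraries, since 10 were called without *Pax9*-null library 2 and 0 without *Pax9*-null library 1 or 3 or wild-type library 1 or 3, where 1, 0, 3 and 4 had an unadjusted *P* under 0.05. Of all 13547 genes 2906, 3592, 3804 and 4162 did in these omissions. With the trends of each library on length and GC content taken out, none was called (0 at an unadjusted *P* under 0.05, beside 2985 of all 13524 genes). The median log2 fold change of the 10 went from 0.58 to 0.33. In that fit *Hbb-y* turned from 0.59 to −0.15 and *Hbb-bh1* from 0.78 to −0.05, and the other 8 stayed above 0. The sum of 10 cardiomyocyte genes was 1500, 1270 and 1140 RPKM in *Pax9*-null and 1280, 1380 and 78.6 RPKM in wild-type embryos, so wild-type library 3 held very little heart RNA. Its level of the atrial light chain gene *Myl7*, the most abundant of the list, was 23.4 RPKM. No gene of the list was called with all libraries (0 at an unadjusted limma *P* under 0.05, and 0 called by voom), but without wild-type library 3 the contractile genes *Myh6*, *Myh7* and *Tnnt2*, 3 of 10, were called lower, beside 900 of all 13547 genes. The same library had the highest sum of 10 neural genes, 176 RPKM against 74.6 to 109 RPKM in the other 5, with the neuronal tubulin gene *Tubb3* in the lead. Of the neural genes 7 had a fold change below 0 and 3 above it, the progenitor genes *Olig2* (0.58), *Pax6* (0.25) and *Irx3* (0.23), and 2 of the 10 were called lower in *Pax9*-null embryos, beside 12.0% of all genes. These were the neurofilament gene *Nefm*, at 33.6% of wild-type (limma adjusted *P*=0.0292), and *Elavl3*, which encodes a neuronal RNA-binding protein, at 41.4% (adjusted *P*=0.0411), and the groups did not overlap for either. Neither was called without *Pax9*-null library 3, where 2 of the 10 had an unadjusted *P* under 0.05, and *Nefm* alone was called without *Pax9*-null library 1. With the length and GC trends taken out the log2 fold change of *Nefm* went from −1.57 to −1.18 (adjusted *P*=0.109) and that of *Elavl3* from −1.27 to −0.92 (adjusted *P*=0.122), and the neural tube gene *Irx3* was called higher (0.0693). Markers of the arch tissue itself were found in every library. The neural crest genes summed to 411 to 552 RPKM, of which *Crabp1*, which encodes a retinoic acid-binding protein, made up 81.3%. The crest gene *Sox10* was at 2.40 to 4.70 RPKM and *Twist1*, which is shared with other mesenchyme, at 42.4 to 57.4 RPKM. By limma *Sox10* was called lower (66.5% of wild-type, adjusted *P*=0.0828) and *Twist1* higher (127%, adjusted *P*=0.0399), 1 of 10 each way. Neither was called without *Pax9*-null library 1 or 3, where 1 of the 10 had an unadjusted *P* under 0.05 in each case, or with the length and GC trends taken out, where 3 did and *Crabp1* was called lower. The log2 fold change of *Twist1* was 0.35 before and 0.30 after that step, and that of *Sox10* −0.59 and −0.29. *Twist1* alone was called without wild-type library 1 or 3, and *Sox10* was not called without wild-type library 2. The pharyngeal endoderm genes summed to 116 to 154 RPKM, of which *Sox2*, a gene also of the neural tube, made up 33.3%. The epithelial gene *Epcam* was at 30.4 to 38.7 RPKM and the endoderm gene *Pax1* at 0.528 to 1.25 RPKM, and the list's *Nkx2-1* was not analysed here. Of the 9 tested, 5 had a fold change below 0 and 4 above it. Limma called 1 lower, *Pax9* itself (11.1%, beside 12.0% of all genes). At an unadjusted *P* under 0.05, 3 were lower, beside 2222 of all 13547 genes. *Pax1* was at 60.0% of wild-type without overlap of the groups, but was not called (limma adjusted *P*=0.101). Voom on the recovered reads called it lower. Its log2 fold change went from −0.74 to −0.40 with the trends taken out. Endothelial genes, led by *Tek*, summed to 61.6, 74.6 and 60.7 RPKM in *Pax9*-null and 113, 76.8 and 69.3 RPKM in wild-type embryos, and 2 of the 9 were called lower (22.2%, beside 12.0% of all genes). None was called without *Pax9*-null library 1 or 3, without wild-type library 1 or with the trends taken out, where 0, 1, 3 and 2 had an unadjusted *P* under 0.05, and 1 was called without wild-type library 2. The part of these cell types in the values of the p53 genes was not tested, and in bulk tissue fewer cells of a type and less RNA per cell cannot be told apart.

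*Pax9* was measured first as a check of the genotypes. Its level (log2 RPKM) was −0.43, −0.63 and −0.59 in the *Pax9*-null libraries and 0.63, 0.71 and 0.96 in the wild-type libraries, a mean ± SD of −0.55 ± 0.11 against 0.77 ± 0.17 (*n*=3 each). The groups lay far apart, and *Pax9* in the mutants was at 40.1% of wild-type (log2 fold change −1.32, SE 0.19, limma adjusted *P*=0.0155). *Pax9* reads were thus still counted in the mutants, 37 to 43 a library against 99 to 123 in wild-type embryos, and which part of the gene they came from was not analysed here.

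The start regions of the 10 genes were searched for the p53 decamer consensus, the sequence of 10 bases that 1 pair of p53 molecules can bind. They were also searched for CATG, which is only 1 form of the core of that consensus. The windows run from 250 bases before to 50 bases after each annotated start (RefSeq, GRCm38.p6). The consensus reads the same on both strands, as does CATG, and a decamer may contain a CATG. *Trp53*, *Mdm2*, *Cdkn1a*, *Ccng1* and *Bax* each had 1 window with a decamer, 5 of the 12 windows and 5 of the 9 genes with an entry. Of all 32851 windows 8.36% held a decamer, and of all 27025 genes 9.55% had a window with one. The windows of *Bbc3*, *Phlda3*, *Sesn2* and *Eda2r* held none, and *Zmat3* had no entry. p53 binds its targets as a tetramer, through a pair of such decamers. These 5 sites are shown because they hold at least 1 decamer, on the strand of the gene, with the decamers in capitals and 20 bases on either side:
Trp53: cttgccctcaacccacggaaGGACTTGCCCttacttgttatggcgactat
Mdm2: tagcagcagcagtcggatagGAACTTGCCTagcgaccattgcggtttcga
Cdkn1a: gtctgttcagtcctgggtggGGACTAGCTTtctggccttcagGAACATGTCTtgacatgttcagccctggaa
Ccng1: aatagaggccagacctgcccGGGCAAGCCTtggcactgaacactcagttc
Bax: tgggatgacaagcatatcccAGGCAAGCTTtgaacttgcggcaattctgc

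The *Trp53* site lies at chr11:69580264-69580313 on the plus strand, its decamer 75 bases before the start. The *Mdm2* site is chr10:117710915-117710964 on the minus strand, with the decamer 186 bases before the start. That of *Cdkn1a* is chr17:29090886-29090957 on the plus strand and holds 2 decamers, 73 and 51 bases before the start and 12 bases apart. Only 0.359% of all windows held 2 or more. The *Ccng1* site is chr11:40755442-40755491 and that of *Bax* chr7:45467070-45467119, both on the minus strand, with the decamers 185 and 201 bases before the start. CATG, inside a decamer or outside one, was found in 5 of the 12 windows, against 61.1% of all windows. A match is a stretch of letters and not a measured binding site, and no match says only that the letters are not in that window. The genes that carry a decamer did not share a direction between the genotypes: *Mdm2* and *Ccng1* were higher, and *Trp53*, *Cdkn1a* and *Bax* lower in the mean of the *Pax9*-null embryos. The difference of *Cdkn1a* and *Bax* was −0.06 each on the log2 scale, and it reached 0 or turned in sign in 3 alternatives for each.

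The 10 genes covered a wide range of levels per length. In wild-type embryos the mean level (log2 RPKM, *n*=3) was 5.29 for *Ccng1*, 4.46 for *Trp53*, 4.41 for *Bax* and 4.01 for *Mdm2*, and it fell through *Phlda3* (2.77), *Sesn2* (2.10), *Eda2r* (1.41), *Cdkn1a* (1.28) and *Zmat3* (1.14) to *Bbc3* (0.56). Neighbours in this order overlapped between *Trp53*, *Bax* and *Mdm2* and between *Eda2r*, *Cdkn1a* and *Zmat3*, and the other neighbours did not. In *Pax9*-null embryos *Ccng1* again led with 5.66, followed by *Bax* (4.35), *Mdm2* (4.24) and *Trp53* (4.01), whose libraries overlapped, and *Bbc3* (0.56) again came last. Genes of 1 role were not alike in level, since the death genes *Bax* and *Bbc3* stood near opposite ends of the order in both genotypes.

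*Trp53* was lower in all 3 *Pax9*-null embryos than in any wild-type embryo. It lies on chromosome 11 (69580359 to 69591873, GRCm38, plus strand, ENSMUSG00000059552). Its level (log2 RPKM) was 3.82, 4.14 and 4.07 in the *Pax9*-null and 4.50, 4.42 and 4.46 in the wild-type libraries, from 663, 821 and 794 against 1165, 1069 and 1122 reads. The wild-type libraries were tightly grouped and the mutant libraries spread more widely, with a gap of 0.28 between the groups. The means were 4.01 ± 0.17 and 4.46 ± 0.04 (SD, *n*=3 each), which put the *Pax9*-null level at 73.1% of wild-type (log2 fold change −0.45, SE 0.10). Leaving out *Pax9*-null library 1, the lowest, brought the fold change to −0.36, and no other omission brought it closer to 0. With length and GC trends taken out, the log2 fold change of *Trp53* was −0.26 and it was not called. Next to *Trp53*, and on the opposite strand, lies *Wrap53*, which shares no annotated exon bases with it. *Wrap53* had a log2 fold change of −0.19 (limma adjusted *P*=0.264).

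*Mdm2*, the feedback inhibitor of p53, was not lower. Its level on chromosome 10 (117688875 to 117710758, minus strand) was 4.40, 4.24 and 4.08 log2 RPKM in *Pax9*-null and 3.78, 4.15 and 4.11 in wild-type embryos. The ranges overlapped, and wild-type library 1 stood below the other 5. The means of 4.24 ± 0.16 and 4.01 ± 0.20 (SD, *n*=3 each) differed by a log2 fold change of 0.23 (SE 0.13), which was 0.11 without wild-type library 1. The other inhibitor of the family, *Mdm4*, which blocks p53 without destroying it, had a log2 fold change of 0.15 (SE 0.12, limma adjusted *P*=0.421).

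*Cdkn1a* encodes p21, the inhibitor of cyclin-dependent kinases through which p53 halts the cycle (chromosome 17, 29090976 to 29100727, plus strand). It was scarcely expressed, with 52 to 76 reads a library. Its level was 1.11, 1.04 and 1.49 log2 RPKM in *Pax9*-null and 1.44, 1.30 and 1.09 log2 RPKM in wild-type embryos. The libraries of both genotypes were interleaved, and the means of 1.21 ± 0.25 and 1.28 ± 0.18 gave a log2 fold change of −0.06 (SE 0.18). It ran from −0.20 without *Pax9*-null library 3 to 0.03 without *Pax9*-null library 2. With an SE of that size, a modest change of *Cdkn1a* in either direction was not detectable. An antisense gene, *AC167363.2*, shares 273 exon bases with it in the GENCODE M21 annotation, and counting without strand does not tell such reads apart. The deposited values rest on 2224 bp of *Cdkn1a*, against 3553 bp in that annotation. Whether the gene models counted held the overlap was not analysed here.

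*Ccng1* was the most abundant p53 gene and, in the deposited values, the one furthest above wild-type. With length and GC trends taken out it was at 0.10 on the log2 scale, below *Mdm2* (0.19) and *Cdkn1a* (0.16). It encodes cyclin G1, which acts in the feedback on p53 through Mdm2 (chromosome 11, 40748552 to 40755311, minus strand). Its level was 5.76, 5.54 and 5.69 log2 RPKM in *Pax9*-null and 5.29, 5.42 and 5.15 in wild-type embryos, from 1877 to 2205 and 1568 to 1857 reads. Every mutant library lay above every wild-type library, by a gap of 0.12. The means were 5.66 ± 0.11 and 5.29 ± 0.14 (SD, *n*=3 each), 130% of wild-type (log2 fold change 0.38, SE 0.10), and the fold change stayed between 0.31 and 0.44 when any 1 library was left out.

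The death genes showed no shared shift. *Bax* encodes a protein that opens the mitochondrial outer membrane during apoptosis (chromosome 7, 45461697 to 45466898, minus strand). Its level was 4.23, 4.14 and 4.66 log2 RPKM in *Pax9*-null and 4.13, 4.63 and 4.46 in wild-type embryos, means of 4.35 ± 0.28 and 4.41 ± 0.26 with a log2 fold change of −0.06 (SE 0.17). The ranges covered each other almost completely, and the fold change ran from −0.22 without *Pax9*-null library 3 to 0.05 without wild-type library 2. *Bax* shares 192 exon bases with *Gm45808* on the same strand in GENCODE M21, where reads cannot be told apart. Whether the gene models counted held this overlap was not analysed here. *Bbc3* encodes Puma, which frees Bax to act by binding the guardian proteins of the Bcl2 family (chromosome 7, 16308393 to 16318205, plus strand). It had the lowest level of the 10 genes, 0.44, 0.73 and 0.51 log2 RPKM in *Pax9*-null and 0.13, 0.55 and 1.0 in wild-type embryos, from 29 to 53 reads a library. Both means were 0.56, with SDs of 0.15 and 0.44, and the fold change ran from −0.22 to 0.22 on the log2 scale when 1 wild-type library was left out.

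*Eda2r*, a receptor for ectodysplasin A2 of the tumour necrosis factor receptor family, lies on the X chromosome (97333840 to 97377216, minus strand). Its level was 1.64, 1.50 and 1.97 log2 RPKM in *Pax9*-null and 1.44, 1.54 and 1.24 in wild-type embryos, and the groups overlapped by 0.04. The means of 1.70 ± 0.24 and 1.41 ± 0.15 gave a log2 fold change of 0.29 (SE 0.17). The extremes were *Pax9*-null library 3 and wild-type library 3, and these were also the libraries with almost no reads of *Xist*, the transcript made from the inactive X chromosome of females. *Xist* had 1162, 1515 and 4 reads in *Pax9*-null and 1201, 1126 and 2 reads in wild-type embryos. The fold change of *Eda2r* was 0.16 without *Pax9*-null library 3, 0.21 without wild-type library 3 and 0.10 with length and GC trends taken out. The part of sex in this fold change was not tested.

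*Sesn2* was the p53 gene furthest below wild-type in the deposited values, though not once length and GC trends were taken out (−0.19, against −0.32 for *Phlda3* and −0.26 for *Trp53*). It encodes sestrin 2, a stress protein that restrains the growth regulator mTORC1 (chromosome 4, 132492032 to 132510501, minus strand). Its level was 1.58, 1.43 and 1.71 log2 RPKM in *Pax9*-null and 2.18, 2.07 and 2.04 in wild-type embryos, from 107 to 133 and 179 to 200 reads. The groups were separated by 0.33, the widest gap among the 10 genes. The means of 1.57 ± 0.14 and 2.10 ± 0.08 (SD, *n*=3 each) put the mutants at 69.5% of wild-type (log2 fold change −0.53, SE 0.13), and the fold change was −0.59 to −0.45 with any 1 library left out.

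*Phlda3* and *Zmat3* were lower in the mean, by less clear margins. *Phlda3* encodes a protein that competes with the kinase Akt for membrane lipid (chromosome 1, 135766119 to 135769136, plus strand). Its level was 2.40, 2.40 and 2.73 log2 RPKM in *Pax9*-null and 2.92, 2.78 and 2.60 in wild-type embryos, with library 3 of each genotype inside the range of the other (log2 fold change −0.25, SE 0.14). *Zmat3* encodes an RNA-binding zinc finger protein (chromosome 3, 32334792 to 32366014, minus strand). Its level was 0.49, 0.95 and 1.03 log2 RPKM in *Pax9*-null and 1.30, 1.06 and 1.06 in wild-type embryos. The groups were apart by only 0.04. The log2 fold change of −0.32 (SE 0.19) became −0.15 without *Pax9*-null library 1 and −0.07 with length and GC trends taken out.

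**Figure D1:**
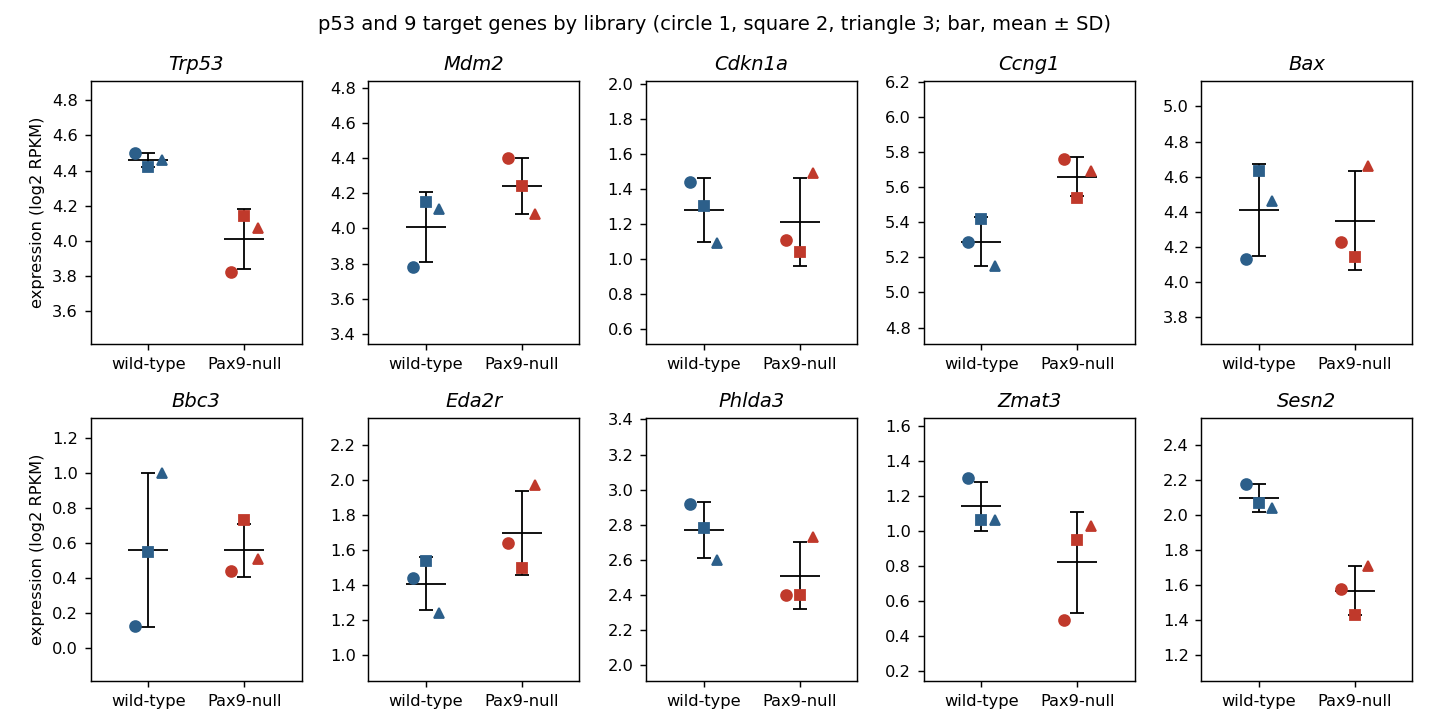
Level of each of the 10 p53 genes (log2 RPKM, vertical axis of each panel) in the 3 *Pax9*-null and 3 wild-type libraries, with points for libraries and bars for the mean ± SD. *Trp53* and *Sesn2* lie clearly lower and *Ccng1* higher in the mutants, *Zmat3* is apart by 0.04, and the libraries of the other 6 genes overlap.

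The 10 genes together did not move one way. Of the 10, 7 had a log2 fold change below 0, counting *Bbc3*, whose value rounds to 0.00, and 3 above it, from −0.53 for *Sesn2* to 0.38 for *Ccng1*, with a median of −0.06 against about 0 over all tested genes. The groups did not overlap for 4 of the 10 genes, beside 41.9% of all genes tested. These were *Trp53*, *Sesn2* and *Zmat3*, which were lower (20.1% of all genes), and *Ccng1*, which was higher (21.8%). In the limma test 26.7% of all genes were called at an adjusted *P* of at most 0.1. *Trp53* and *Sesn2* were among those called lower (12.0% of all genes) and *Ccng1* among those called higher (14.7%), and since the genes were chosen with this contrast known nothing is read from these counts. Of the genes not called, the larger log2 fold changes were those of *Zmat3* (−0.32), *Eda2r* (0.29), *Phlda3* (−0.25) and *Mdm2* (0.23), each under 2 times its SE. All of the 3 calls were lost without *Pax9*-null library 1 or without *Pax9*-null library 3, where 3 and 4 of the 10 had an unadjusted limma *P* under 0.05. Over all 13547 genes these omissions left 301 and 175 called, and 2906 and 3592 with an unadjusted *P* under 0.05, so that losses of calls without these libraries, here and in the lists that follow, went with a loss over the whole table. *Ccng1* was no longer called without wild-type library 3, nor *Sesn2* without wild-type library 1.

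**Figure D2:**
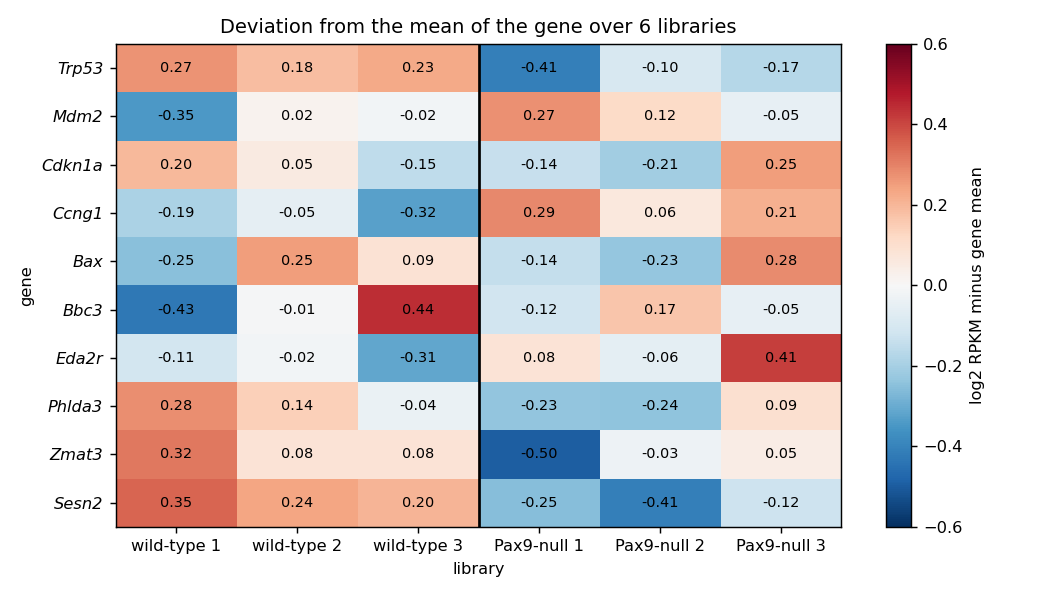
Level of each p53 gene in each library as the difference from that gene's mean over the 6 libraries (log2 RPKM), with *Trp53* in the top row and the 9 targets below it. *Trp53* is below its mean in the 3 *Pax9*-null libraries and above it in the 3 wild-type libraries. The mean of the targets, which is not drawn, stays within 0.12 of 0.

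The targets were also compared with *Trp53* library by library. Set against each gene's own mean over the 6 libraries, *Trp53* was at −0.41, −0.10 and −0.17 in *Pax9*-null libraries 1 to 3 and at 0.27, 0.18 and 0.23 in the wild-type libraries. On the same scale the 9 targets averaged −0.08, −0.09 and 0.12 in the *Pax9*-null and −0.02, 0.08 and 0.00 in the wild-type libraries. *Pax9*-null libraries 1 and 2 thus had the lowest target means of the 6 and *Pax9*-null library 3 the highest. The number of targets above their own mean was 3, 3 and 6 of 9 in the *Pax9*-null and 4, 6 and 4 of 9 in the wild-type libraries. Because the libraries of each genotype form a cluster for *Trp53*, no pooled correlation is given, and a relation within the genotypes was not tested.

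The targets also differed in how near their pattern over the 6 libraries came to that of *Trp53*. Nearness was measured as the root mean square difference between the 2 centred profiles, with a small value for a like pattern. *Zmat3* was the nearest of the 9 at 0.12, with rank 738 of 13546 genes, followed by *Sesn2* at 0.15 and *Phlda3* at 0.18. *Cdkn1a* (0.27), *Bax* (0.31) and *Bbc3* (0.35) came next, and *Mdm2* (0.41), *Eda2r* (0.42) and *Ccng1* (0.45, rank 10613) were the furthest. The median of the 9 was 0.31, and that of all genes was 0.31 as well. The 5 genes nearest to *Trp53* were *Epg5*, *Skiv2l*, *Man2c1*, *Hdac6* and *Arhgdia*, each with a difference of 0.03 and a log2 fold change between −0.49 and −0.41.

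The level of *Trp53* and its targets has to be read beside gene length and GC content, with which fold changes moved across the whole table. By length, the decile of the shortest genes (56 to 1371 bp) had a median log2 fold change of 0.55 and the longest (9682 to 123179 bp) one of −0.20. Among the p53 genes, *Phlda3* (1559 bp), *Bax* (1576 bp) and *Bbc3* (2124 bp) fell in the decile with a median of 0.15. *Sesn2* (3475 bp), *Ccng1* (3512 bp), *Cdkn1a* (3553 bp, although the deposited values rest on 2224 bp) and *Trp53* (4045 bp) shared a decile with a median of −0.02. *Mdm2* (5083 bp) and *Eda2r* (5891 bp) were in one with a median of −0.08, and *Zmat3* (11435 bp) was in that of the longest genes. The GC content was 40.8% in *Ccng1*, 53.3% in *Trp53* and 58.7% in *Sesn2*, and it was highest in *Phlda3* (62.6%), *Bax* (63.5%) and *Bbc3* (65.2%).

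**Figure D3:**
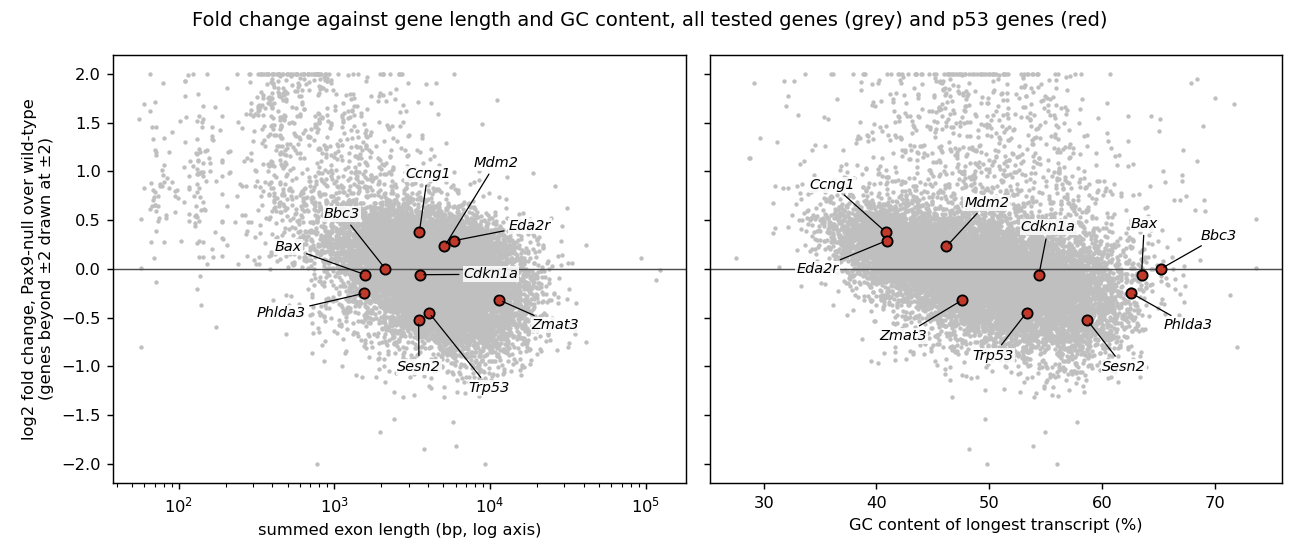
Log2 fold change (*Pax9*-null over wild-type, vertical axis, drawn at ±2 beyond that) against summed exon length in bp on a log axis (left) and GC content in percent (right), for all tested genes in grey and the 10 p53 genes in red. The cloud slopes down with both. *Ccng1* and *Eda2r* sit among genes of low GC content, and *Sesn2*, *Phlda3*, *Bax* and *Bbc3* among genes of high GC content.

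With each library's smooth dependence on length and GC content taken out, the fold changes of 6 of the 10 p53 genes were nearer to 0 and those of the other 4 further from it. *Trp53* kept a log2 fold change of −0.26 of its −0.45. *Sesn2* went from −0.53 to −0.19, *Zmat3* from −0.32 to −0.07, *Ccng1* from 0.38 to 0.10, *Eda2r* from 0.29 to 0.10 and *Mdm2* from 0.23 to 0.19. *Phlda3* went the other way, from −0.25 to −0.32, as did *Bax*, from −0.06 to −0.14. *Cdkn1a* changed sign from −0.06 to 0.16, and *Bbc3* was at 0.05. The median of the 10 became −0.01, and none was called by limma, where 1 had an unadjusted *P* under 0.05. Over all genes the same step took the number called from 3611 to 503. An unadjusted *P* under 0.05 was left for 2985 of 13524 genes, the background of such counts here and in the lists that follow. The source of the trends was not tested.

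**Figure D4:**
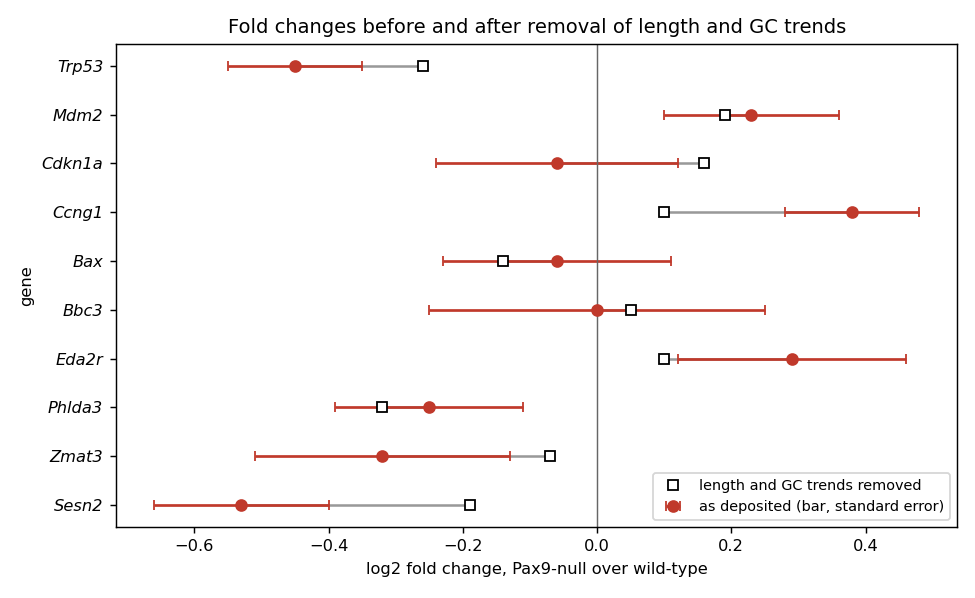
Log2 fold change of each p53 gene (*Pax9*-null over wild-type, horizontal axis) as deposited and after each library's trends on length and GC content were taken out. *Trp53* moves from −0.45 to −0.26, *Sesn2* from −0.53 to −0.19 and *Ccng1* from 0.38 to 0.10.

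The rest of the pathway was described by lists chosen by function. Of 44 further targets of p53, 41 were listed and 40 tested. By limma 1 was called lower (2.5%) and 2 higher (5.0%), against 12.0% and 14.7% of all genes, and the median log2 fold change was −0.02. *Gtse1*, which encodes a microtubule protein that restrains p53 in G2 phase, fell to 76.8% of wild-type (log2 fold change −0.38, SE 0.10, limma adjusted *P*=0.0512). *Perp*, which encodes a desmosome protein of epithelia with a role in apoptosis, rose to 134% (0.42, SE 0.11, adjusted *P*=0.0482). With the length and GC trends removed *Gtse1* was at −0.26 and *Perp* at 0.12. *Rps27l*, a ribosomal protein gene of 816 bp with a near-identical paralogue, *Rps27*, rose to 153% (0.61, SE 0.15, adjusted *P*=0.0459), but its log2 fold change turned to −0.26 in that fit. None of the 40 was called without *Pax9*-null library 1 or 3, where 4 and 5 had an unadjusted limma *P* under 0.05, nor with the trends removed, where 5 did.

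The genes that act on p53 moved both ways. Of 22 regulators tested, limma called 3 lower (13.6%) and 7 higher (31.8%), beside 12.0% and 14.7% of all genes, with a median log2 fold change of 0.04. After quantile normalization 3 were called lower and 3 higher, without *Rpl11*, *Rpl23*, *Npm1* and *Chek1*, and the calls over all genes went from 1621 lower and 1990 higher to 1742 lower and 1433 higher. *Rpl5* and *Rpl11* encode ribosomal proteins that bind Mdm2 when ribosome assembly falters. *Rpl5* rose to 150% of wild-type (log2 fold change 0.59, SE 0.14, limma adjusted *P*=0.0427) and *Rpl11* to 132% (0.40, SE 0.14, adjusted *P*=0.0967). *Rpl23*, which also binds Mdm2, rose to 135% (adjusted *P*=0.0667), and the nucleolar chaperone gene *Npm1* to 132% (adjusted *P*=0.0823). Ribosomal protein genes and *Npm1* have many near-identical pseudogenes. Only uniquely aligned reads were kept, and how far this step lowered their counts was not tested. *Rfwd2*, which encodes the ubiquitin ligase Cop1 that also targets p53, rose to 128% (limma adjusted *P*=0.0586). The checkpoint kinase genes *Chek1* and *Chek2* rose to 121% and 122% (adjusted *P*=0.0632 and 0.0804). With the trends removed the log2 fold changes of *Rpl23*, *Npm1* and *Chek1* were 0.02, 0.06 and 0.03, and *Chek2* was at 0.16, *Rfwd2* at 0.32, *Rpl5* at 0.39 and *Rpl11* at 0.45. Wild-type library 1 was the lowest of the 6 for each of these genes except *Npm1*, and *Rpl5* alone of them was called without it.

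The 3 regulators that fell are long genes of 8836 bp (*Hipk2*), 13540 bp (*Crebbp*) and 14164 bp (*Trp53bp1*). *Hipk2*, which encodes a kinase that phosphorylates p53 in the death response, fell to 59.1% of wild-type (log2 fold change −0.76, SE 0.25, limma adjusted *P*=0.082). *Crebbp*, which encodes an acetyltransferase and coactivator of p53, fell to 63.2% (−0.66, SE 0.22, adjusted *P*=0.08). *Trp53bp1*, which encodes a p53-binding protein of the DNA damage response, fell to 71.4% (−0.49, SE 0.14, adjusted *P*=0.063). For each of these wild-type library 1 was the highest of the 6, and with the trends removed the fold changes were −0.36, −0.25 and −0.18. None of the 22 was called without *Pax9*-null library 1 or 3, where 6 and 7 had an unadjusted limma *P* under 0.05 (2906 and 3592 of all 13547 genes), or with the trends removed, where 3 did, and 1 and 3 were called without wild-type library 1 or 3.

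Among 8 genes whose loss is known to raise p53 activity in the embryo, limma called 3 lower (37.5%) and 1 higher (12.5%), beside 12.0% and 14.7% of all genes. *Tcof1*, the gene of Treacher Collins syndrome, encodes the nucleolar protein treacle that helps RNA polymerase I and keeps p53 quiet in neural crest. Its level was 2.39, 3.23 and 2.80 log2 RPKM in *Pax9*-null and 4.33, 3.63 and 3.66 in wild-type embryos. The groups were apart by 0.40, and the mutants were at 47.8% of wild-type (log2 fold change −1.06, SE 0.25, limma adjusted *P*=0.0453). *Chd7*, the chromatin remodeller gene of CHARGE syndrome, whose product holds down *Trp53* expression, fell to 58.7% (−0.77, SE 0.21, adjusted *P*=0.0549). *Polr1a*, which encodes the largest subunit of RNA polymerase I, fell to 63.4% (−0.66, SE 0.19, adjusted *P*=0.0642). *Polr1d*, a subunit shared by RNA polymerases I and III, rose to 131% (0.39, SE 0.13, adjusted *P*=0.0841).

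Wild-type library 1 was the highest of the 6 for *Tcof1*, *Chd7* and *Polr1a*, as for the regulators that fell, but all of the 3 were still called lower without it. The other 4 of these genes did not pass the test. The neural tube and crest factor gene *Pax3* had a log2 fold change of −0.26 (limma adjusted *P*=0.324), *Polr1b* −0.17 (adjusted *P*=0.29), *Polr1c* 0.18 (adjusted *P*=0.384) and *Mdm4*, as above, 0.15. With the trends removed *Tcof1* was at −0.68, *Chd7* at −0.36, *Polr1a* at −0.29 and *Polr1d* at 0.44. None of the 8 was called by limma in that fit, where 4 had an unadjusted *P* under 0.05, beside 2985 of all 13524 genes. None was called without *Pax9*-null library 1 or 3 either, where 3 did in each case.

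**Figure D5:**
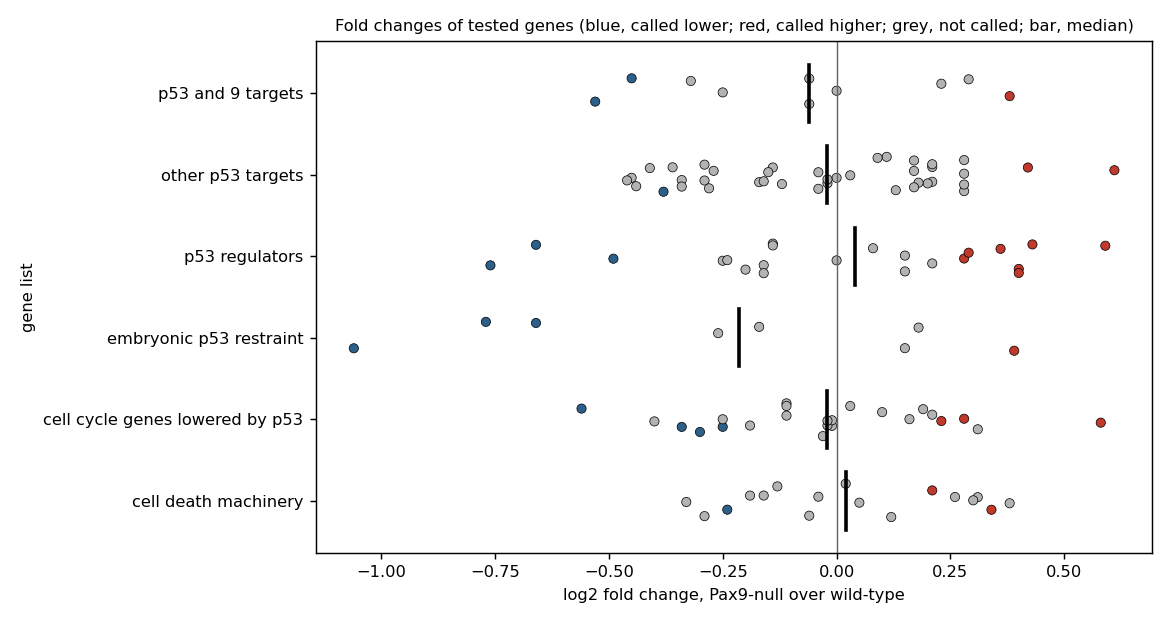
Log2 fold change (*Pax9*-null over wild-type) of every tested gene in the p53 lists, 1 row of points a list, with called genes set apart and the list's median as a bar. The 10 p53 genes and the 40 further targets scatter around 0, and *Tcof1*, at −1.06, is the lowest gene of the lists.

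p53 is known to turn down many cell cycle genes, through p21 and the DREAM repressor complex. Of 24 tested cell cycle genes limma called 4 lower (16.7%) and 3 higher (12.5%), near the 12.0% and 14.7% of all genes, with a median log2 fold change of −0.02. After quantile normalization, which also moved the balance over all genes as given above, 7 were called lower and 1 higher, and *Bub1* and *Chek1* were no longer called. *Foxm1*, which encodes the activator of the mitotic genes, fell to 67.9% of wild-type (log2 fold change −0.56, SE 0.15, limma adjusted *P*=0.0518). The kinase gene *Plk1* fell to 78.8%, *Cdc20*, which encodes an activator of the anaphase-promoting complex, to 81.5%, and the spindle checkpoint gene *Bub1b* to 84.2% (limma adjusted *P*=0.0715, 0.0633 and 0.0961). *Ccne2*, a cyclin gene of the entry into S phase, rose to 149% (0.58, SE 0.17, adjusted *P*=0.0639). *Bub1*, another spindle checkpoint gene, rose to 117% (adjusted *P*=0.0898), and *Chek1* was counted in this list too. No gene of the list was called without *Pax9*-null library 1 or 3, where 6 and 8 had an unadjusted limma *P* under 0.05, and 1 was called without wild-type library 1. With the trends removed 1 was called, lower, and the log2 fold changes were −0.34 for *Cdc20*, −0.28 for *Plk1*, −0.25 for *Foxm1* and −0.17 for *Bub1b*. In the same fit *Ccne2* was at 0.19, and *Bub1* turned from 0.23 to −0.02.

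In the machinery of cell death itself, 17 genes were tested and limma called 1 lower (5.88%) and 2 higher (11.8%), beside 12.0% and 14.7% of all genes. *Bak1*, the partner of *Bax* in opening mitochondria, fell to 84.6% of wild-type (log2 fold change −0.24, SE 0.08, limma adjusted *P*=0.0878). *Xiap*, which encodes an inhibitor of caspases, rose to 127% (0.34, SE 0.10, adjusted *P*=0.0628), and *Mcl1*, a survival gene of the Bcl2 family, to 116% (0.21, SE 0.08, adjusted *P*=0.0938). None of the 17 was called without *Pax9*-null library 1 or 3, where 1 and 3 had an unadjusted limma *P* under 0.05. None was called either without wild-type library 1 or 3, where 4 and 3 did, or with the trends removed, where 3 did and *Bak1* was at −0.10, *Xiap* at 0.21 and *Mcl1* at 0.21.

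Of the p53 family, *Trp63*, which encodes the epithelial stem cell factor p63, had a level of 1.37 ± 0.13 log2 RPKM in *Pax9*-null and 1.15 ± 0.33 in wild-type embryos (SD, *n*=3 each). The groups overlapped (log2 fold change 0.22, SE 0.20, limma adjusted *P*=0.461). *Trp73* was not analysed here.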

How the data were processed

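RNA-seq was made from the dissected pharyngeal arch region of 3 embryos without *Pax9* and 3 wild-type embryos. The labels also name sorted cells and another library kit, and the study's description of whole tissue is followed. The authors trimmed reads, kept those with a unique alignment and no duplicate, and sub-sampled every library towards the smallest. They counted reads per gene, and the submitters' processing notes name Trimmomatic 0.32, STAR 2.5.1a and featureCounts 1.5.1. Counting ran at default settings, which use no strand. The authors deposited log2 RPKM values with a prior count of 0.5, a prior read from the values and not stated. Reads were recovered from them with GENCODE M21 lengths (GRCm38), and 82.7% of values were whole within 0.05 reads before gene lengths were searched. No raw counts were analysed here.

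Genes averaging 0.5 RPKM or more (13547) were tested on the log2 values, two-sided, with limma 3.58.1 in R 4.3.3, with a variance trend, no covariates and Benjamini-Hochberg adjustment, and called at 0.1 or below. The study used voom on counts. An exact permutation test of 3 against 3 libraries cannot give a *P* below 0.1. *P* values set the difference against the spread between libraries within the genotypes. In that spread embryo, dissection and library preparation cannot be told apart. A match of the replicate numbers served as a block in 1 alternative, and length and GC trends were removed per library with splines in another.

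The members, lists and alternatives were chosen with earlier results of these data known, so no list supports a pattern already seen. Named were all 10 members, *Pax9*, in each list the called genes whose groups did not overlap (up to 5 rising and 5 falling), the p53 family, the embryonic list, the 5 genes nearest to *Trp53* and the most abundant marker genes. *Chek2*, *Wrap53*, *Xist*, *Nefm*, *Elavl3*, *Sox10*, *Twist1*, *Epcam*, *Pax1*, *Irx3*, *Olig2*, *Pax6*, *Myh6*, *Myh7*, *Tnnt2* and *Hbb-bh1* were added after their values were seen. Promoter windows came from RefSeq.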

Additional observations from a re-analysis of the deposited data

How the results depend on the processing

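The fold changes of the 10 p53 genes were recomputed in up to 16 alternatives. *Trp53*, *Mdm2*, *Ccng1*, *Phlda3*, *Zmat3*, *Sesn2* and *Eda2r* kept their sign in every one that tested them, *Bax* in 13 of 16 and *Cdkn1a* in 12 of 15, and *Bbc3*, whose value rounds to 0.00, in 4 of 15. The number of the 10 below 0 was 7, and it was 5 to 6 with any 1 library left out, 5 once length and GC trends were taken out and 3 of the 5 genes tested at a mean of at least 5 RPKM. The pattern distance to *Trp53*, with a median of 0.31, cannot change under median centring, which shifts all genes of a library alike, so no alternative tested it, and the promoter counts had none. The SEs of the 10 log2 fold changes ran from 0.10 for *Trp53* and *Ccng1* to 0.25 for *Bbc3*, the gene with the fewest reads, and changes below about 2 SEs were not detectable.

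The counts of called genes were less steady, and the cause was not tested. Leaving out 1 library gave 175 to 3578 called genes in all (3611 with all libraries), with 0 to 2 higher and 0 to 3 lower among the 40 further targets (2 and 1), 0 to 6 and 0 to 4 among the regulators (7 and 3), and 0 to 1 and 0 to 3 among the genes that restrain p53 in the embryo (1 and 3). It gave 0 to 3 and 0 to 2 among the cell cycle genes (3 and 4), and 0 to 2 and 0 among the death genes (2 and 1). Once the trends on length and GC content were taken out, 503 genes were called in all, 1 cell cycle gene lower, and 0 in either direction in the other lists and 0 cell cycle genes higher. At an adjusted *P* of at most 0.05, 1335 genes were called in all, 1 regulator higher, 1 restraint gene lower and 2 further targets higher, *Trp53* and *Sesn2* lower among the 10, and 0 of the other genes in the p53 lists. Without a variance trend in limma, 3 further targets were lower, 4 regulators higher and 1 lower, 0 restraint genes higher, 1 cell cycle gene in each direction and 0 death genes in either. Over all genes that fit called 1368 lower and 1450 higher. Quantile normalization called 3 regulators, 0 restraint genes, 1 cell cycle gene and 1 death gene higher, and 7 cell cycle genes lower. Its calls over all genes were 1742 lower and 1433 higher. A mean of at least 5 RPKM gave 2 further targets lower, and 4 death genes higher and 2 lower. That filter left 24 further targets and 14 death genes, and called 1091 lower and 1660 higher of 7983 genes. Library weights gave 5 further targets and 2 death genes lower, beside 2031 lower and 2338 higher over all genes. A pseudocount of 1 RPKM gave 2 further targets lower, median centring 0 death genes lower, and no filter 1 death gene higher. Voom on the recovered reads, chosen after seeing the data, called 3 further targets lower and 4 death genes higher. Of all 13502 genes it called 1824 lower and 2054 higher.

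Deviations from the genotype means gave *r* across genes of −0.02, −0.173 and 0.26 for the 3 pairs of libraries of the same number. Only *Pax9*-null library 3 correlated best with its own number. Library 3 of both genotypes also had almost no *Xist* reads, as given above. With means of 3 libraries these correlations cannot decide whether the numbers pair the samples. With the number as a replicate block, 1377 genes were called in all, *Trp53* alone among the 10, 1 further target higher and 0 lower, 0 regulators and 0 death genes in either direction, 0 restraint genes higher and 1 lower, and 1 cell cycle gene higher and 0 lower.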
